A study of Saccharomyces cerevisiae with 18 samples.

Results

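The genes described here encode the proteins of the small-subunit (SSU) processome and of the small nucleolar ribonucleoproteins (snoRNPs) of the budding yeast Saccharomyces cerevisiae. They were chosen by name: the UTP proteins, the core snoRNP proteins NOP1, NOP56, NOP58, SNU13, CBF5 and NHP2, and 40S assembly factors such as MPP10, SOF1, RRP5 and ENP1. RNA helicases and genes on chromosomes III and VIII were left out by that rule. It gave 46 genes of the 6746 features counted, and all 46 passed the filter on low counts. No measured value entered the rule, but the genes were chosen with earlier results of these data known.

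Poly(A) RNA was sequenced as 18 libraries, 3 in each of 6 groups. Wild-type (WT) and mutant cells were grown to log phase in YPD at 30 °C and left unstressed, given 0.4 M NaCl for 15 min, or heated to 39 °C for 10 min. Both strains are FY406, mating type MATa. In both, LEU2 replaces the chromosomal hta1-htb1 pair, TRP1 replaces hta2-htb2, and the alleles his3delta200, leu2delta1, ura3-52, trp1delta63 and lys2-128delta are present. The only HTA1-HTB1 copy is on a plasmid, so WT is a plasmid-covered strain too, and the mutant's copy encodes H2A S121A, with the serine changed to alanine. The labels write the plasmid marker as HIS3, HIS4 or HIS5 for the 3 replicates of a group. They do not say whether replicates were separate cultures, so p-values measure the spread between these libraries, which may be technical.

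Most eukaryotic ribosomal RNA is made as 1 long precursor in the nucleolus. The SSU processome assembles on the precursor as it is transcribed, around the U3 snoRNA, and folds, cleaves and trims the part that becomes the 40S subunit. Box C/D snoRNPs guide methylation of the RNA and box H/ACA snoRNPs guide pseudouridylation. In yeast these proteins belong to the ribosome biogenesis regulon, which is switched off within minutes of many stresses. Many of its promoters carry a PAC element, bound by the repressors DOT6 and TOD6, and an RRPE element, bound by the repressor STB3.

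The libraries held 39.57 to 53.03 M (mega) counts. A count of 3 in them is 0.0566 to 0.0758 per 1 M of the plain library total. The CPM values are counts scaled to 1 M by TMM (trimmed-mean scaling). The lowest count of any of the 46 genes in any library was 12, for BFR2 in a heated WT library. HTA1 was at 781 to 1770 CPM in all 18 libraries, and counts per gene do not show the mutated codon. The heat-induced HSP26 was at 10200 to 13300 CPM at 39 °C and 19.9 to 78.1 CPM without stress. The salt-induced STL1 was at 5560 to 6020 CPM in NaCl and 0.467 to 1.43 CPM without stress. The 7 a-specific genes, which MATa cells express, summed to 476 to 2940 CPM over the groups. The 4 alpha-specific genes summed to 43.8 to 101 CPM, most of it SAG1 at 33.7 to 92.0 CPM. The alpha pheromone genes MFALPHA1 and MFALPHA2 were at 2.48 CPM or less and none of the 4 was at 0. In the S121A libraries genes of chromosome III had a median log2 difference from WT of 0.62, 0.64 and 0.68 without stress, in NaCl and in heat. The same median over chromosomes other than III and VIII was between -0.05 and -0.02, and none of the 46 genes lies on III or VIII. The chromosome III difference went with the mutant in every condition. Comparisons of genotypes therefore cannot tell it apart from the change in H2A.

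The promoters below show the DNA in front of 6 of the genes. UTP14, RRP5 and BFR2 were among the genes that differed most between genotypes under stress. NOP56 fell most in heat relative to NaCl among the 46. BUD21 and UTP22 were not called different between genotypes in any condition. Each line runs 5′ to 3′ on the gene's strand, from 200 to 71 bases before the start codon. Capitals mark exact matches on either strand to the PAC core GATGAG or the RRPE core AAAATTT. AAAATTTT holds overlapping RRPE matches on both strands, and NOP56 also holds AAATTTT, the reverse complement of the RRPE core. Sequences and coordinates are from the RefSeq assembly of build R64.

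UTP14: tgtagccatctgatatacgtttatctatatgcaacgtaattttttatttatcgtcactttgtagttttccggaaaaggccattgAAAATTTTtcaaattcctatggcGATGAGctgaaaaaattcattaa
RRP5: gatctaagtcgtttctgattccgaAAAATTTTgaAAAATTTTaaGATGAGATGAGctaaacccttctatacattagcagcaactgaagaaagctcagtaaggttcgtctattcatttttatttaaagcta
BFR2: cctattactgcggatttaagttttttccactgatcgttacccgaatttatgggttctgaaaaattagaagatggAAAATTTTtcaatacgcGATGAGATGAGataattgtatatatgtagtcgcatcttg
NOP56: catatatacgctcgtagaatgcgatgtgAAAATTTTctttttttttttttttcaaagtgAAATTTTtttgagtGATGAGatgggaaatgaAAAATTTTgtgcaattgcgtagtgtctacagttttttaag
BUD21: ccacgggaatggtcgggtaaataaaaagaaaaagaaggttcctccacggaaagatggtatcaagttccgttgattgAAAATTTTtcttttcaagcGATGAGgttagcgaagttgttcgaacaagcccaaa
UTP22: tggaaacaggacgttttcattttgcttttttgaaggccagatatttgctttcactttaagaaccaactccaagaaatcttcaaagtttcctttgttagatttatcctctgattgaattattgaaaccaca

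In UTP14 (YML093W, chromosome XIII, gene at 83090 to 85789, plus strand) the PAC match began 93 bases and the RRPE match 116 bases before the start codon. RRP5 (YMR229C, chromosome XIII, 725934 to 731123, minus strand) held overlapping PAC matches at 156 and 151 bases, just downstream of RRPE matches. BFR2 (YDR299W, chromosome IV, 1059627 to 1061231, plus strand) had the same pair of overlapping PAC matches at 109 and 104 bases. BUD21 (YOR078W, chromosome XV, 472725 to 473369, plus strand) had PAC at 105 and RRPE at 124 bases. UTP22 (YGR090W, chromosome VII, 662358 to 666071, plus strand) had no match in the stretch printed and an RRPE match nearer the gene, at 30 bases. NOP56 (YLR197W) is on chromosome XII, at 546097 to 547611 on the plus strand.

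Within 250 bases before the start codon, 40 of the 46 genes (87.0%) held the PAC core, against 1022 of 6001 protein-coding nuclear genes (17%). The RRPE core was present in 43 (93.5%), against 21.7% of all genes, and both in 38 (82.6%), against 6.63%. EMG1 (YLR186W), a methyltransferase of the small-subunit RNA, was the 1 gene with neither. With the longer letters GCGATGAG and AAAAATTTT, 14 of the 46 (30.4%) held both, against 1.62% of all genes. These are letter matches and were not tested as binding sites.

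**Figure D1:**
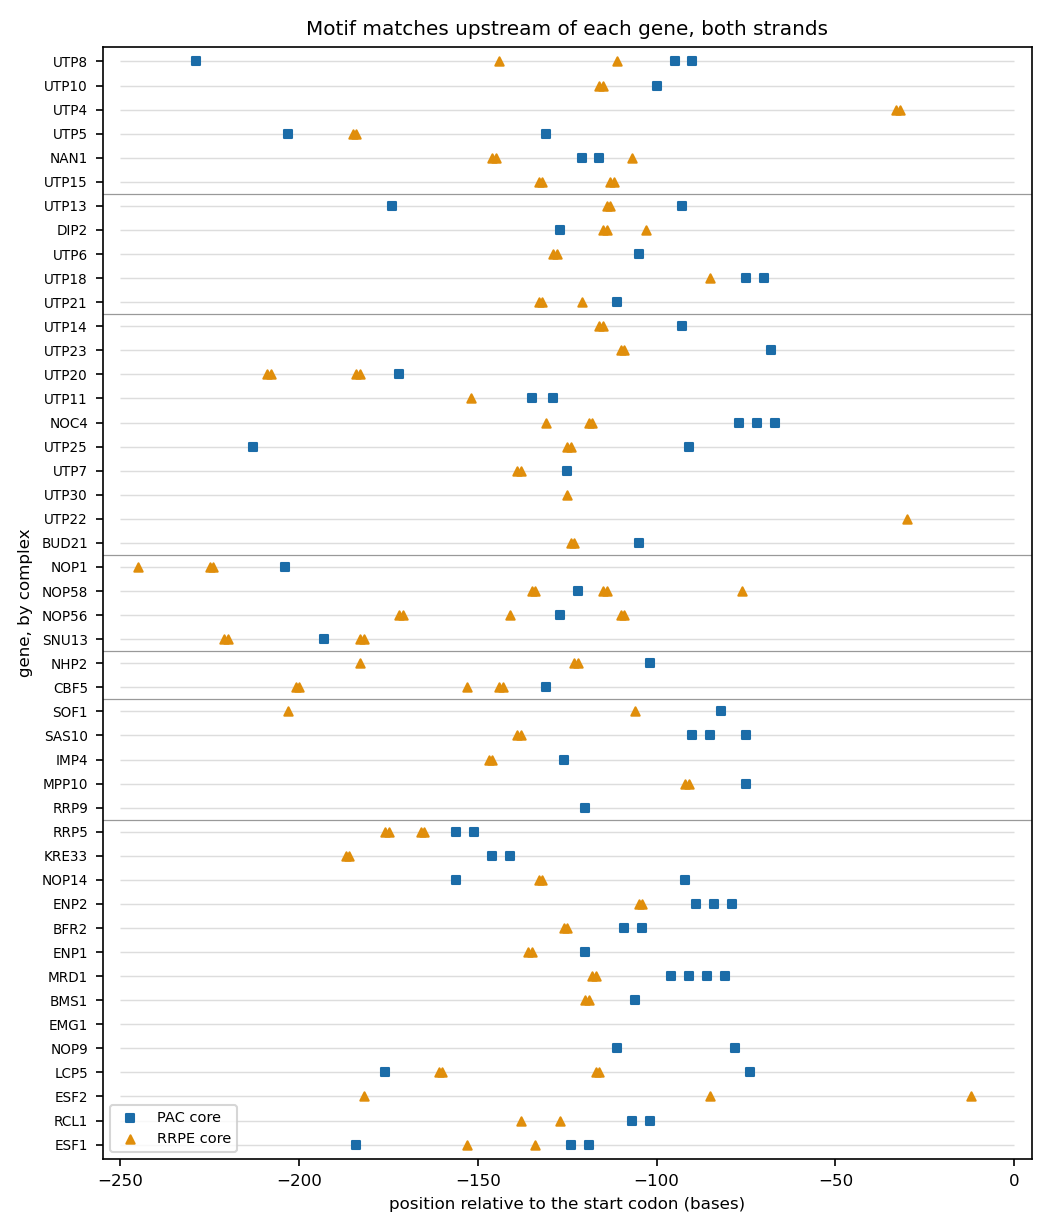
Position of each motif match relative to the start codon, in bases, for the 46 genes grouped by complex (squares, PAC core; triangles, RRPE core; both strands). EMG1 has no match, and 38 genes hold both motifs.

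Without stress, the snoRNP core genes were expressed far above the rest. All levels in this paragraph are CPM per kilobase of coding sequence in unstressed WT (mean ± SD, n = 3). SNU13 (YEL026W), a small protein that binds the kink-turn of box C/D and U3 RNA and also belongs to the spliceosome's U4 particle, was at 853 ± 42.7. NOP1 (YDL014W), the methyltransferase of box C/D snoRNPs (fibrillarin), was at 822 ± 63.3, and NOP56 and NOP58 (YOR310C), their scaffold proteins, were at 270 ± 3.29 and 180 ± 6.86. CBF5 (YLR175W), the pseudouridine synthase of H/ACA snoRNPs, was at 229 ± 4.21 and its partner NHP2 (YDL208W) at 210 ± 11.4. EMG1 was at 102 ± 2.64. The remaining 39 genes lay between 14.8 ± 0.626 (UTP20) and 54.6 (UTP5), with medians of 35.2 for the 6 UtpA genes, 27.7 for the 5 UtpB genes and 34.7 for the 5 genes of U3 and the Mpp10 complex. The median of all 46 was 31.8 in unstressed WT and 31.6 in unstressed S121A.

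Both stresses lowered nearly the whole set in WT. In NaCl all 46 genes fell (edgeR, adjusted p under 0.05), where 37.2% of all 6395 genes tested fell. Their median log2 fold change was -3.59, against -0.01 over all genes, and all 46 fell at least 2-fold, as 15.0% of all genes did. In heat 45 of 46 fell, where 39.3% of all genes fell, with a median of -4.70 against 0.02. The median gene was left with 8.32% of its unstressed CPM after 15 min in NaCl and with 3.83% after 10 min at 39 °C. The number of the 46 genes left with under 10% was 30 in NaCl and 39 in heat. The share of all genes under this limit was not computed. In bulk RNA, fewer cells holding a transcript and less of it per cell cannot be told apart, and CPM values give shares of the mRNA and not amounts per cell.

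The same holds for S121A cells, with smaller falls. In NaCl all 46 fell, where 35.3% of all genes fell, with a median log2 fold change of -2.82. In heat all 46 fell, where 39.7% of all genes fell, with a median of -3.57. The median gene was left with 14.2% of its unstressed CPM in NaCl and 8.41% in heat. Of the 46, 14 and 33 genes were left with under 10%, again without a share of all genes to set beside them. Both responses of a genotype use the same unstressed libraries.

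**Figure D2:**
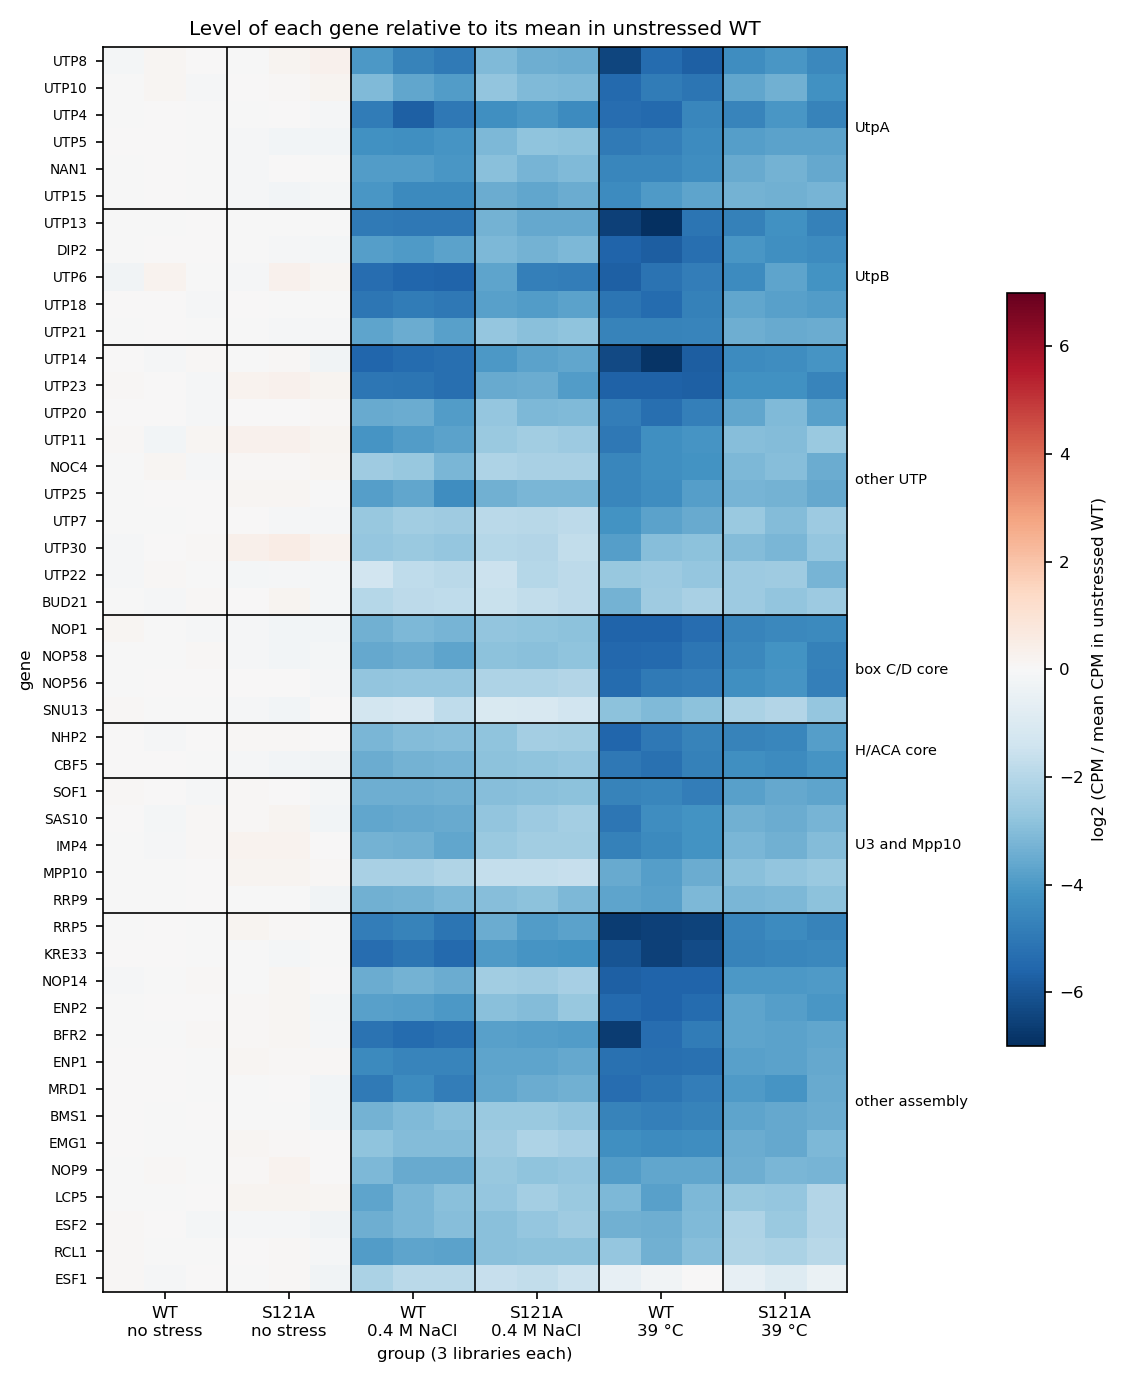
Each row is a gene, each column a library, and the colour is the log2 ratio of its CPM to the gene's mean CPM in unstressed WT, with genes grouped by complex. The stressed columns are blue for nearly every gene, palest for ESF1 at 39 °C.

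Summed over the 46 genes, the share of all counts was 0.516%, 0.538% and 0.528% in the unstressed WT libraries and 0.566%, 0.591% and 0.566% in unstressed S121A. It was 0.0593%, 0.0615% and 0.0543% in WT in NaCl and 0.0888%, 0.0802% and 0.0819% in S121A in NaCl. In heated WT it was 0.0202%, 0.0245% and 0.0281%, and in heated S121A 0.0359%, 0.0374% and 0.0324%. The S121A libraries were above the WT libraries in each condition with no overlap. These shares use the plain library totals: the higher share in unstressed S121A goes with a shift of 0.15 in the log2 difference of the median gene when totals replace TMM. The group means ± SD (n = 3) were 0.0584% ± 0.00369 in WT and 0.0836% ± 0.00455 in S121A in NaCl, and 0.0243% ± 0.00396 and 0.0352% ± 0.00257 in heat. Genes with high counts weigh most in these sums, which do not describe the typical gene. In heated WT the highest means were those of ESF1, at 77.5 CPM, and SNU13, at 42.2 CPM.

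**Figure D3:**
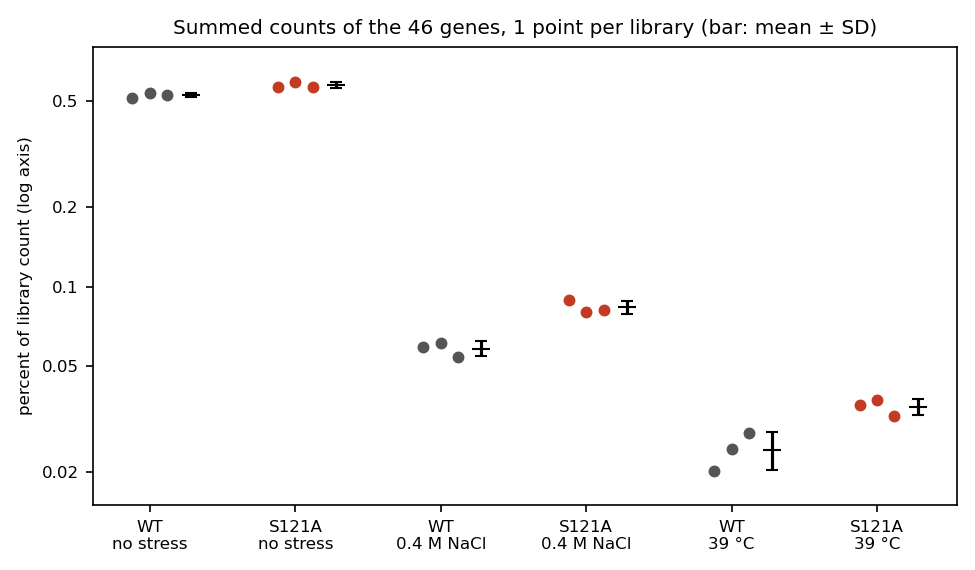
Percent of each library's counts that fell on the 46 genes, on a log axis, by group (points, libraries; bars, mean ± SD). The shares lie above 0.5% without stress, between 0.05% and 0.1% in NaCl and between 0.02% and 0.04% in heat, with S121A above WT in each condition.

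UtpA is the complex that binds the precursor first, at its 5′ end. Its 6 genes fell with a median log2 fold change of -4.28 in NaCl and -4.87 in heat in WT. UTP4 fell most in NaCl, at -5.16 ± 0.20 (log2, SE; edgeR adjusted p = 7.93e-15), and UTP8 in heat, at -5.75 ± 0.21 (adjusted p = 1.24e-15). UTP8 was at 43.1, 52.6 and 47.8 CPM in unstressed WT, at 2.93, 1.88 and 1.55 CPM in NaCl and at 0.566, 1.14 and 0.894 CPM in heat. The smallest falls were those of UTP10 in NaCl (-3.50 ± 0.21) and UTP15 in heat (-3.99 ± 0.12). In S121A the median was -3.23 in NaCl and -3.71 in heat.

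UtpB joins next and contacts both the precursor and U3. Its 5 genes fell with medians of -4.98 in NaCl and -5.15 in heat in WT, and -3.46 and -4.14 in S121A. UTP6 (YDR449C) had the largest fall of the 46 genes in NaCl in both genotypes, -5.50 ± 0.26 in WT (adjusted p = 1.1e-13) and -4.45 ± 0.23 in S121A. Its CPM was 20.8, 29.1 and 23.9 in unstressed WT and 0.603, 0.525 and 0.502 in NaCl. UTP13 had the largest fall of the 5 in heat, -5.96 ± 0.24 in WT and -4.54 ± 0.21 in S121A. UTP21 had the smallest, -3.64 ± 0.08 in NaCl and -4.64 ± 0.09 in heat in WT.

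The 10 UTP genes outside these complexes spread more widely. UTP14, which activates the helicase that releases U3, fell by 5.40 ± 0.15 in NaCl (adjusted p = 1.41e-17) and 6.25 ± 0.16 in heat in WT. UTP14 was at 52.6, 49.5 and 54.4 CPM in unstressed WT, at 1.1, 1.27 and 1.34 CPM in NaCl and at 0.655, 0.454 and 0.940 CPM in heat. UTP22, which forms the UtpC complex with RRP7 and casein kinase 2, had the smallest fall in NaCl, -1.66 ± 0.16 (adjusted p = 2.94e-08). BUD21, a non-essential processome protein also named UTP16, had the smallest in heat, -2.61 ± 0.17. In S121A the largest falls of the group were those of UTP23, at -3.85 ± 0.12 in NaCl and -4.59 ± 0.13 in heat.

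The 4 box C/D core genes had WT medians of -2.99 in NaCl and -5.17 in heat. NOP1 was at 877, 796 and 754 CPM in unstressed WT, 78.8, 90.3 and 84.0 CPM in NaCl and 16.9, 16.8 and 20.2 CPM in heat. In S121A it was at 762, 696 and 706 CPM without stress, 121.4, 116.1 and 110.1 CPM in NaCl and 32.3, 35.7 and 37.0 CPM in heat. The S121A libraries were all above the WT libraries in both stresses and, apart from the highest, below them without stress. NOP1 fell by 3.26 ± 0.09 in NaCl and 5.49 ± 0.10 in heat in WT, and by 2.64 ± 0.09 and 4.36 ± 0.10 in S121A. NOP58 fell by 3.59 ± 0.12 and 5.30 ± 0.13, and NOP56 by 2.72 ± 0.13 and 5.04 ± 0.15, in WT in NaCl and heat. SNU13 had the smallest fall of the 46 genes in NaCl, -1.39 ± 0.15 in WT and -1.09 ± 0.14 in S121A, and was at -2.95 ± 0.15 and -2.22 ± 0.15 in heat.

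Both H/ACA genes fell in each stress and genotype. CBF5 fell by 3.34 ± 0.10 in NaCl and 4.97 ± 0.11 in heat in WT, and by 2.62 ± 0.10 and 4.08 ± 0.11 in S121A. NHP2 fell by 3.09 ± 0.17 and 5.01 ± 0.19 in WT, and by 2.61 ± 0.16 and 4.40 ± 0.19 in S121A.

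The 5 genes of U3 and the Mpp10 complex had WT medians of -3.40 in NaCl and -4.44 in heat. SAS10, a processome protein also named UTP3, had the lowest value in NaCl, -3.58 ± 0.15, and SOF1, a processome protein that associates with U3, in heat, -4.68 ± 0.10. MPP10 (YJR002W) itself had the smallest fall in NaCl, -2.20 ± 0.09 in WT and -1.80 ± 0.09 in S121A. RRP9, the U3-specific protein, had the smallest in heat in WT, -3.51 ± 0.13.

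The 14 remaining assembly factors held both extremes in heat. RRP5, a large RNA-binding protein needed for both subunits, had the largest heat fall of the 46 genes, -6.55 ± 0.13 in WT (adjusted p = 5.51e-20) and -4.66 ± 0.11 in S121A. RRP5 was at 133, 138 and 130 CPM in unstressed WT, 1.31, 1.43 and 1.49 CPM in heated WT and 5.31, 6.20 and 5.29 CPM in heated S121A. KRE33 (YNL132W), an RNA acetyltransferase, had the largest fall of these 14 in NaCl, -5.30 ± 0.10 in WT and -4.02 ± 0.09 in S121A. ESF1 (YDR365C), a pre-rRNA processing factor, was the 1 gene not called in WT heat, at -0.24 ± 0.13 (adjusted p = 0.0916). It was at 95.2, 87.0 and 92.8 CPM in unstressed WT and at 62.1, 77.4 and 92.9 CPM in heat, so the groups overlapped. Without the highest of these libraries, WT heat replicate 3, ESF1 was called at -0.39 (adjusted p = 0.01). It was also called with plain library totals (-0.62, adjusted p = 0.000686), with upper quartile scaling (-0.36, 0.0227) and with the WT unstressed and heat libraries alone (-0.29, 0.0394). In NaCl ESF1 was at 20.1, 24.6 and 24.8 CPM in WT, a fall of 1.98 ± 0.13. In S121A it fell by 1.54 ± 0.13 in NaCl and by 0.56 ± 0.13 in heat (adjusted p = 0.000559).

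**Figure D4:**
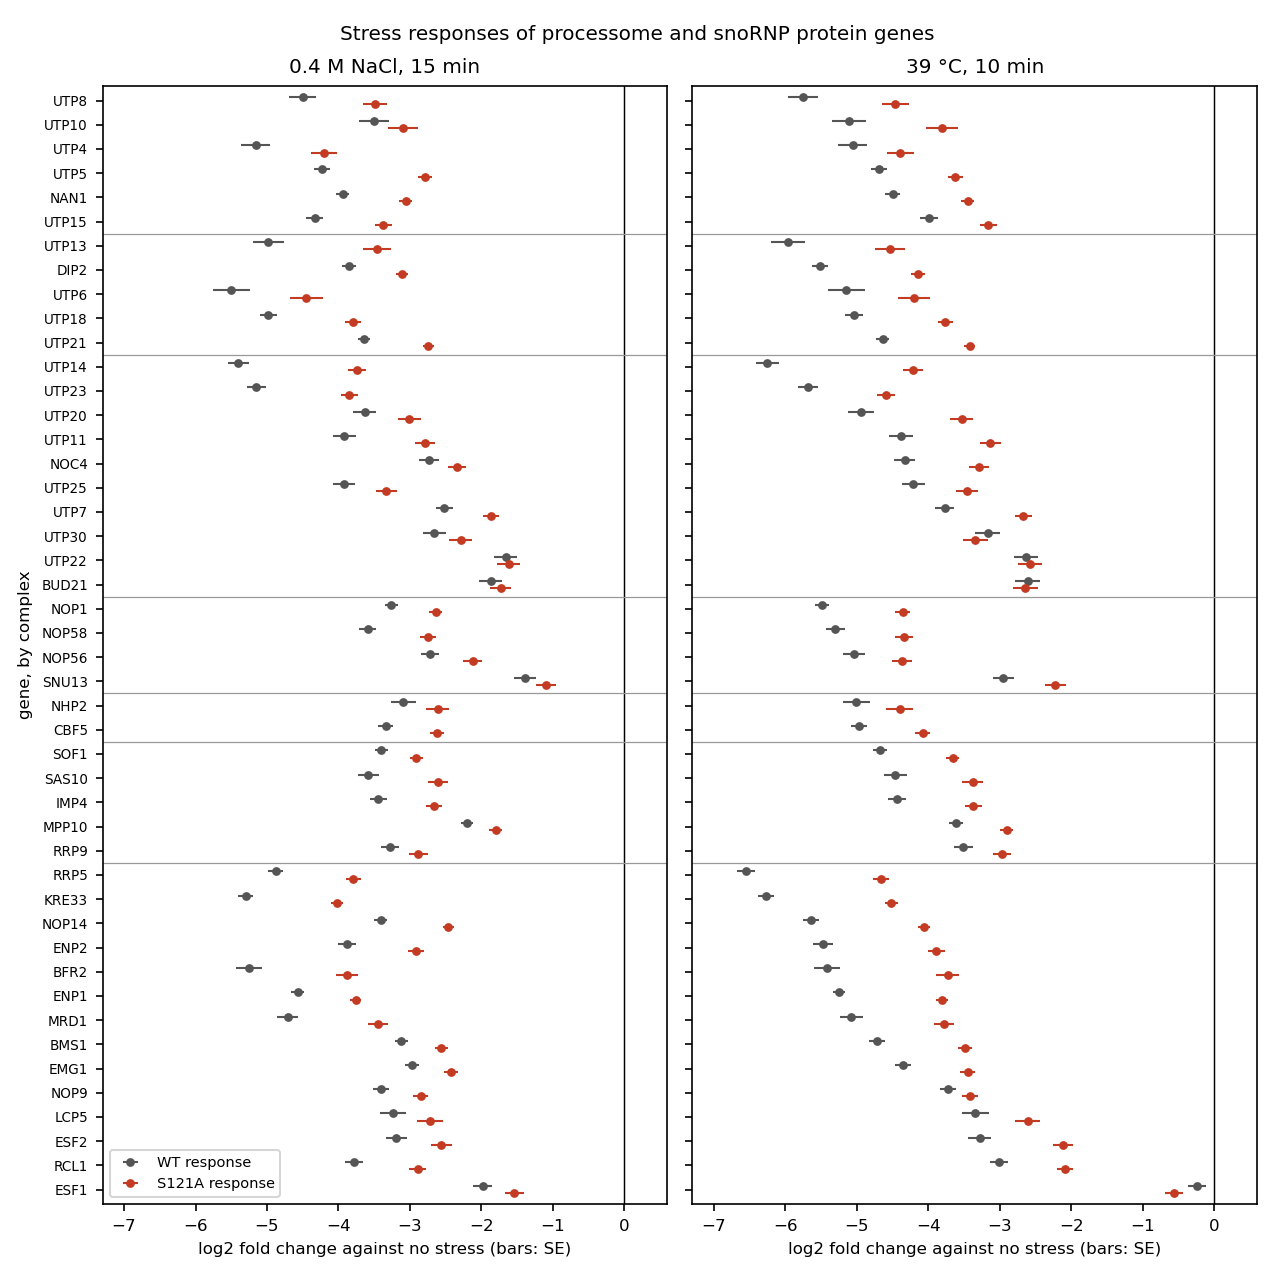
Log2 fold change against no stress for each of the 46 genes (points, edgeR estimates; bars, SE), WT in grey and S121A in red, in NaCl on the left and heat on the right. In both panels the red points lie nearer 0 for most genes, and ESF1 lies nearest 0 in heat.

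The comparison of genotypes asks whether these genes differ between S121A and WT in the same condition. Without stress none of the 46 was called in either direction by edgeR, where 9.05% of all genes were higher and 14.1% lower in S121A. The median log2 difference was 0.00 and the range -0.18 to 0.38. At an unadjusted p under 0.05 there were 3 of the 46, DESeq2 called 1 higher and limma-voom 3, and a fit of the unstressed libraries alone called 10 higher. Of all genes, DESeq2 called 9.51% higher, limma-voom 10.1% and the fit of the unstressed libraries alone 21.0%, so the 10 are near the share of all genes. The 6 snoRNP core genes lay between -0.18 ± 0.09 for CBF5 (adjusted p = 0.163) and 0.08 ± 0.15 for NHP2 (adjusted p = 0.743).

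In NaCl 41 of the 46 genes were higher in S121A and 0 lower, where 14.6% of all genes were higher and 9.19% lower. DESeq2 and limma-voom also called 0 lower, and 0 were lower at an unadjusted p under 0.05. The median log2 difference was 0.74, against 0.00 over all genes, and 15 were at least 2-fold higher, as 2.78% of all genes were. For 42 genes the 3 S121A libraries lay wholly above the 3 WT libraries, as they did for 21.9% of all genes. In heat 42 were higher, where 19.5% of all genes were higher, with a median of 1.05. At least 2-fold higher were 25, against 3.96% of all genes. ESF1 was the 1 gene called lower in heat, where 14.2% of all genes were lower. For 40 genes the libraries did not overlap, against 20.8% of all genes.

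UTP14 led in NaCl, with 3.25, 3.82 and 4.18 CPM in S121A against 1.1, 1.27 and 1.34 CPM in WT. The groups did not overlap, and the log2 difference was 1.60 ± 0.16 (adjusted p = 3.59e-07). UTP23, a PIN-domain protein of the processome, followed at 1.54 ± 0.15, then UTP13 at 1.5 ± 0.22 and BFR2, an early processome factor, at 1.41 ± 0.20. BFR2 was at 2.59, 2.44 and 2.36 CPM in S121A and at 0.991, 0.831 and 0.962 CPM in WT in NaCl. In heat RRP5 and UTP14 differed most, by 1.98 ± 0.14 (adjusted p = 2.27e-09) and 1.97 ± 0.19. UTP14 was at 2.49, 2.58 and 3.00 CPM in heated S121A, above all 3 heated WT libraries. BFR2 followed at 1.74 ± 0.21 and KRE33 at 1.69 ± 0.12, with 4.45, 4.73 and 4.91 CPM in S121A against 1.70, 1.23 and 1.47 CPM in WT.

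By complex, all 5 UtpB genes were higher in S121A in both stresses, with medians of 1.17 in NaCl and 1.27 in heat. UtpA had 5 of 6 higher in NaCl (median 0.89) and 6 of 6 in heat (0.97). The 14 other assembly factors were all higher in NaCl (0.91), and 13 were higher in heat (1.20). The 10 UTP genes outside these complexes had medians of 0.67 in NaCl and 1.11 in heat. For the 5 genes of U3 and the Mpp10 complex they were 0.55 and 0.99. The snoRNP core medians were 0.53 and 0.75 for box C/D and 0.55 and 0.70 for H/ACA. None of these core genes reached 2-fold in either stress, but in NaCl their medians were close to that of U3 and the Mpp10 complex. NOP1 was higher by 0.46 ± 0.09 in NaCl and 0.96 ± 0.09 in heat, NOP58 by 0.72 ± 0.11 and 0.84 ± 0.12, and CBF5 by 0.54 ± 0.09 and 0.70 ± 0.10. NOP56 was higher by 0.60 ± 0.12 (adjusted p = 0.00122) in NaCl, with 92.5, 90.2 and 98.8 CPM in S121A against 60.1, 63.7 and 62.0 CPM in WT. In heat NOP56 was higher by 0.67 ± 0.13, with 21.1, 23.5 and 14.6 CPM against 9.88, 13.1 and 14.1 CPM, so that the closest libraries nearly met. NHP2 was higher by 0.56 ± 0.16 in NaCl (adjusted p = 0.0178), and this call was lost without WT NaCl replicate 1 or S121A NaCl replicate 2 or 3 (adjusted p 0.0709 to 0.0847). Its heat difference of 0.70 ± 0.21 (adjusted p = 0.0145) was lost without WT heat replicate 1 or S121A heat replicate 3, at adjusted p = 0.0552 and 0.117, and with the heat libraries alone (0.0879).

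The genes that were not called are named here after their values were seen. In NaCl they were UTP22 (-0.09 ± 0.16), BUD21 (0.17 ± 0.16), SNU13 (0.21 ± 0.14), RRP9 (0.29 ± 0.13) and UTP10 (0.50 ± 0.20). UTP10 was called at 0.78 (adjusted p = 0.00773) without WT NaCl replicate 1, its highest WT library in NaCl, and at 0.50 (0.0434) without S121A heat replicate 3. It was also called by DESeq2 (0.49, adjusted p = 0.0375), by limma-voom (0.54, 0.0401) and with upper quartile scaling (0.56, 0.0476). In a fit of the 6 NaCl libraries with their replicate number as a block, added after the data were seen, it was called at 0.53 (adjusted p = 0.00476). RRP9 was called at 0.29 (adjusted p = 0.0438) without WT heat replicate 3. In heat the uncalled genes were UTP22 (-0.07 ± 0.17), BUD21 (0.01 ± 0.18) and UTP30 (0.21 ± 0.20). UTP22 was at 54.2, 39.8 and 36.9 CPM in WT and 49.2, 34.8 and 39.0 CPM in S121A in NaCl, and at 21.9, 23.4 and 21.2 against 24.1, 24.5 and 14.7 CPM in heat. The groups overlapped in both conditions. A p over the threshold does not show that the genotypes are alike for these genes. ESF1 in heat was at 60.8, 49.8 and 67.4 CPM in S121A, overlapping WT, a log2 difference of -0.39 ± 0.13 (adjusted p = 0.0275). The call was lost without WT heat replicate 2 (adjusted p = 0.0673) or 3 (0.197), or S121A heat replicate 1 (0.055) or 2 (0.126), and with the heat libraries alone (0.0913).

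**Figure D5:**
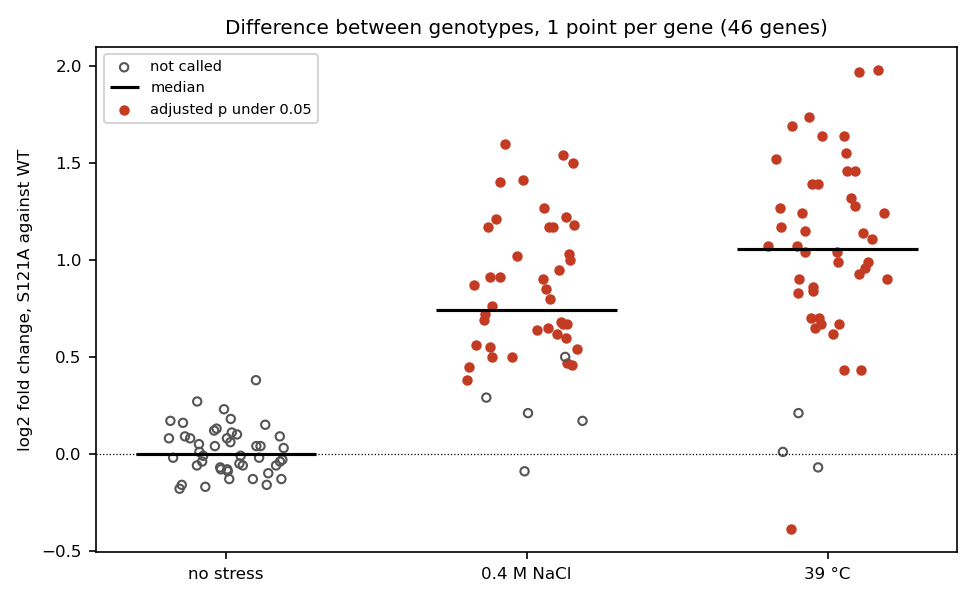
Log2 fold change of S121A against WT for each of the 46 genes in each condition (filled, adjusted p under 0.05; open, not called; lines, medians). The medians are 0.00 without stress, 0.74 in NaCl and 1.05 in heat, and no point is filled without stress.

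The response difference, the S121A response minus the WT response, tests whether the falls themselves differed. It shares its libraries with the comparisons above and is no separate evidence. In NaCl 31 of the 46 genes had a smaller fall in S121A, where 6.82% of all genes had a higher response. In heat 38 did, where 15.5% of all genes had a higher response. None was called the other way by edgeR in either stress, where 1.53% and 7.08% of all genes were, and 0 were lower with DESeq2, with limma-voom or at an unadjusted p under 0.05. The median differences were 0.76 in NaCl and 1.07 in heat, against 0.04 and 0.05 over all genes. UTP14 had the largest difference in both stresses, 1.65 ± 0.19 in NaCl (adjusted p = 1.07e-05) and 2.03 ± 0.22 in heat (adjusted p = 2.04e-06). In NaCl UTP13 (1.52 ± 0.28), UTP5 (1.44 ± 0.14), a UtpA gene, and BFR2 (1.37 ± 0.24) followed. In heat RRP5 (1.90 ± 0.17), KRE33 (1.75 ± 0.14) and BFR2 (1.69 ± 0.25) followed. Without WT heat replicate 1, 1 gene was called lower in heat.

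For the snoRNP core, NOP1, NOP58 and CBF5 had smaller falls in S121A in both stresses, by 0.62 ± 0.12, 0.84 ± 0.15 and 0.72 ± 0.13 in NaCl and 1.13 ± 0.12, 0.96 ± 0.16 and 0.88 ± 0.14 in heat. NOP56 did so by 0.67 ± 0.18 in heat (adjusted p = 0.0108) and 0.61 ± 0.17 in NaCl (adjusted p = 0.0308). The NaCl call of NOP56 was lost without any 1 of 10 libraries: each unstressed library, WT NaCl replicate 1 or 3, and S121A NaCl replicate 2 or 3 (0.57 to 0.63, adjusted p 0.0511 to 0.0831). It was also lost with plain library totals (0.45, adjusted p = 0.218) and upper quartile scaling (0.56, 0.0656), and the heat call of NOP56 was lost with plain totals (0.45, 0.132). SNU13 was called in heat at 0.73 ± 0.20 (adjusted p = 0.016), which became 0.66 (0.0553) without WT heat replicate 2 and 0.51 (0.0935) with plain totals, and not in NaCl at 0.29 ± 0.20. NHP2 was not called in NaCl (0.48 ± 0.22) or heat (0.61 ± 0.26, adjusted p = 0.0923), and was called in heat by DESeq2 (adjusted p = 0.0365) and without WT heat replicate 3 (0.0406) or S121A heat replicate 1 (0.0432).

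Heat and NaCl were compared within each genotype, at the 10 and 15 min the study used, so stress and time cannot be told apart. In WT 34 of the 46 genes were lower in heat than in NaCl, where 33.2% of all genes were lower, with a median log2 difference of -0.97. In S121A 32 were lower, where 33.6% of all genes were lower, with a median of -0.75. The largest gap was in the snoRNP core. All 4 box C/D genes and both H/ACA genes were lower in heat in each genotype, led by NOP56 at -2.32 ± 0.13 in WT and -2.25 ± 0.13 in S121A. NOP1 was lower by 2.23 ± 0.09 and 1.73 ± 0.09, and NHP2 by 1.93 ± 0.19 and 1.79 ± 0.18. NOP14, which joins NOC4 and EMG1 in the processome, was lower by 2.23 ± 0.11 in WT and 1.59 ± 0.09 in S121A.

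In the other direction, 3 genes were higher in heat in WT, where 32.9% of all genes were, and 3 in S121A, where 30.6% were. ESF1 was higher in heat by 1.74 ± 0.13 in WT and 0.98 ± 0.13 in S121A. RCL1 (YOL010W), an early cleavage factor that binds the GTPase BMS1, was higher by 0.77 ± 0.13 and 0.80 ± 0.12. RCL1 was at 3.51, 4.00 and 3.87 CPM in NaCl and 7.92, 5 and 6.67 CPM in heat in WT, with no overlap. The third gene was UTP15 in WT, at 0.34 ± 0.13 (adjusted p = 0.0263), which was lost without WT NaCl replicate 2 or 3 or WT heat replicate 2 or 3 (0.17 to 0.33, adjusted p 0.0609 to 0.266). UTP15 was also not called with plain totals (0.09, adjusted p = 0.629), by limma-voom (0.33, 0.0573) or with those groups alone (0.32, 0.179). In S121A it was ESF2, a factor that stimulates the helicase DBP8, at 0.45 ± 0.15 (adjusted p = 0.0158), lost without S121A NaCl replicate 1 or S121A heat replicate 1 or 3 (adjusted p 0.0571 to 0.0854), with plain totals (0.12, 0.483) and with those groups alone (0.45, 0.0682).

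The letters in front of the genes were set beside these values as a description. In WT heat the 38 genes with both core motifs had a median log2 fold change of -4.99 and the 8 others -3.62, and in NaCl the medians were -3.63 and -3.23. In the genotype comparison they were 1.15 and 0.53 in heat and 0.86 and 0.66 in NaCl. With the longer letters, the 14 genes with both had a WT heat median of -4.70 and the 32 others -4.81. In WT NaCl these medians were -3.75 and -3.49. For the genotype comparison the longer letters gave 1.16 and 0.99 in heat and 0.86 and 0.70 in NaCl. The ranges overlapped in each comparison. ESF1, which held both motifs, had the smallest heat response of all 46, and BUD21, which held both in their longer form, was among the genes not called between genotypes. EMG1, with neither, fell by 2.97 in NaCl and 4.35 in heat on the log2 scale.

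Other genes of the pathway were counted from lists of known functions. The shares of all genes beside which these counts stand are 37.2% lower in NaCl and 39.3% lower in heat for the WT responses. For S121A against WT they are 9.05% higher without stress, 14.6% higher in NaCl and 19.5% higher in heat. The 7 processome and H/ACA partners on chromosomes III and VIII all fell in both stresses in WT, from PWP2, a UtpB gene, at -4.52 in NaCl and -5.84 in heat to RRP7 at -0.97 and -0.84. Of these 7, 5 were higher in unstressed S121A, with a median of 0.45, beside the chromosome III and VIII medians of 0.62 and 0.09 over all their genes. All 9 processome helicases fell in WT (medians -3.58 and -4.50), from ROK1 at -6.52 in heat to HAS1 at -2.08 in NaCl, and all 9 were higher in S121A in both stresses (0.92 and 1.09). Of 12 genes of later 40S maturation 11 fell in each stress in WT, led by RRP12 at -5.22 in NaCl and TSR1 at -5.86 in heat. HRR25, a kinase with other roles in the cell, rose by 0.35 and 0.37, and its heat value was -0.01 with plain library totals. Between genotypes, 9 of these 12 genes were higher in S121A in NaCl and 0 lower, with a median of 0.6. In heat 8 were higher and 1 lower, with a median of 0.67, where 14.2% of all genes were lower.

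The 4 casein kinase 2 genes, whose products join UTP22 and RRP7 in UtpC and act widely in the cell, had WT medians of -0.17 in NaCl and -0.06 in heat. CKA2, a catalytic subunit, fell in both, by 0.64 ± 0.06 and 0.45 ± 0.06. The other catalytic subunit gene, CKA1, fell by 0.29 ± 0.12 in heat (adjusted p = 0.0381), a call lost without any 1 of 3 libraries (adjusted p 0.101 to 0.224). CKB1, a regulatory subunit gene, was called higher in heat at 0.27 ± 0.10 (adjusted p = 0.0166), but was at -0.13 with plain totals. The CKB1 call was also lost with upper quartile scaling (0.15, adjusted p = 0.178) and without WT unstressed replicate 3 (0.23, 0.0657). Between genotypes none of the 4 was called in NaCl, where the log2 differences ran from -0.07 to 0.11. In heat CKA1 and CKA2 were called lower in S121A, at -0.37 ± 0.12 (adjusted p = 0.0272) and -0.17 ± 0.06 (0.0376), where 14.2% of all genes were lower. Both calls were lost with the heat libraries alone (adjusted p = 0.106 and 0.172) and without single heat libraries (0.0609 to 0.14 for CKA1, 0.0502 to 0.128 for CKA2). The CKA2 call was also lost with RLE scaling (-0.15, adjusted p = 0.0773) and without the genes of chromosomes III and VIII (-0.14, 0.0859).

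Of 10 snoRNP assembly factors 8 fell in each stress in WT, where 37.2% of all genes fell in NaCl and 39.3% in heat. Their medians were -1.18 and -1.12. SRP40 was at -3.52 and -3.74, and PIH1 rose by 0.51 and 0.83. NAF1 was the other gene called higher in WT heat. Its WT means were 43.6 CPM without stress, 11.2 CPM in NaCl and 75.6 CPM in heat. Between genotypes, 4 of the 10 assembly factors were higher in S121A in NaCl and 3 in heat, and 0 were lower in either. The medians were 0.28 and 0.11, and 14.6% and 19.5% of all genes were higher. Of the 4 regulators, TOD6 fell by 3.09 ± 0.11 in NaCl and 4.31 ± 0.12 in heat in WT, and the other 3 rose, STB3 by 0.78 ± 0.08 and 1.24 ± 0.08. TOD6 was also the 1 regulator called higher in S121A in each stress, by 0.85 and 1.17, where 14.6% and 19.5% of all genes were higher. In NaCl 1 of the 4 was called lower in S121A, where 9.19% of all genes were lower. SFP1 had the lowest value there, at -0.43.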

How the data were processed

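Raw counts per gene were deposited by the authors without normalization, 1 column per library. Per the submitters' processing notes, the tools were DESeq2 1.10.1, featureCounts 1.4.6-p5 and TopHat2 2.0.1, on sacCer3 or R64. Protocols in the labels give hot-phenol RNA, poly(A) selection, a stranded kit and paired-end reads. For strand and multiply mapped reads the counting rule was not given in these sources. No member overlapped another annotated gene.

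The 46 genes and all lists were chosen with earlier results of these data known. Groups came from the sample titles, and 0 columns were without a sample. filterByExpr kept 6395 features. Those removed held 0.00142% of all counts. Counts were scaled by TMM and fitted in edgeR 4.0.16 (R 4.3.3) with a robust quasi-likelihood model, 1 mean per group over all 18 libraries. Tests were two-sided and adjusted by Benjamini-Hochberg over all genes. An adjusted p under 0.05 was a call. Each SE comes from this model. Unless another tool is named, each adjusted p is from edgeR. Floors of 3 counts cover counting error only.

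Genes named per stress response are the lowest and highest of each complex. Per genotype comparison they are up to 4 called each way, beside the 6 snoRNP core genes. Counts of 5 or fewer were named after their values were seen. Complexes and lists were assembled by hand from known functions.

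Coding lengths and 250 bases before each start codon came from the RefSeq R64 annotation and genome, in place of the planned promoter tables. Of the features, 6025 matched by locus tag. Alternatives used RLE, upper quartile or plain totals, other filters, DESeq2 1.42.0, limma-voom (limma 3.58.1), fewer libraries or chromosomes, and a replicate block. In NaCl, same-numbered WT and S121A libraries deviated together (3 correlations, 0.112 to 0.3, each over 0.1), a pairing read from the data. No other pair of groups met this in all 3, but WT in NaCl with S121A in heat came close (0.0948 to 0.334). The model was tested on simulated data for the WT heat response (6338 genes). It recovered 94% of genes changed by -1 on the log2 scale and 100% of those changed by 1, with 12 false calls. Only 50 genes were changed at each size, with as many raised as lowered. The real WT heat response had 2595 genes called higher and 2512 lower. The simulation therefore does not test scaling or error rates under such broad change.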

Additional observations from a re-analysis of the deposited data

Results flagged for a closer look

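The results given here stand out because the S121A and WT responses to the same stress differed by a test of the difference itself (edgeR, adjusted p under 0.05). In NaCl 31 of the 46 genes had a smaller fall in S121A, where 6.82% of all genes had a higher response, and in heat 38 did, where 15.5% of all genes had one.

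Among the snoRNP core genes the NaCl response difference was 0.62 for NOP1, 0.84 for NOP58, 0.61 for NOP56 and 0.72 for CBF5 (log2, S121A minus WT response). The heat response difference was 1.13 for NOP1, 0.96 for NOP58, 0.67 for NOP56, 0.73 for SNU13 and 0.88 for CBF5. With plain library totals NOP56 was called in neither stress (0.45 in each, adjusted p = 0.218 in NaCl and 0.132 in heat), nor SNU13 in heat (0.51, 0.0935).

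Among the processome genes the NaCl response difference was 1.65 for UTP14, 1.52 for UTP13, 1.44 for UTP5 and 1.37 for BFR2. The heat response difference was 2.03 for UTP14, 1.90 for RRP5, 1.75 for KRE33 and 1.69 for BFR2.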

How the results depend on the processing

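No called value of the 46 genes named in the text changed sign under the alternatives run. Plain library totals shifted the median gene by -0.14 and -0.37 in WT NaCl and heat, by -0.30 and -0.63 in S121A, by 0.15 between unstressed genotypes and by -0.12 and -0.17 in the response differences. Relative to the median gene, the medians of the 46 genes were -3.58, -4.72, -2.81 and -3.55 in these 4 responses, against -3.58, -4.72, -2.81 and -3.56 with TMM. A change of scaling shifts every gene of a comparison by nearly the same amount, so this match was fixed in advance and is no check.

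With plain totals the medians of the 46 genes were -3.72 and -5.09 in WT NaCl and heat, -3.11 and -4.18 in S121A, 0.17 between unstressed genotypes, 0.60 for the NaCl response difference, and -1.23 and -1.07 for heat against NaCl in WT and S121A. With upper quartile scaling they were -3.71 in WT NaCl, -2.99 and -3.80 in S121A NaCl and heat, and 0.10 between unstressed genotypes, and 0.05 there when those libraries alone were fitted.

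Genes called higher in unstressed S121A numbered 0, but 7 with plain totals, 4 with upper quartile, 1 with DESeq2, 3 with limma-voom, 1 with a filter of 1 CPM in 3 libraries and 10 with those groups alone. Of all genes, 17.9%, 13.6%, 9.51%, 10.1%, 10.2% and 21.0% were higher under these settings. With 1 library left out they numbered 0 to 1. In heat the 1 gene lower in S121A became 0 with those groups alone and 0 to 1 with 1 library left out. The heat response difference had 1 lower gene with plain totals and 0 to 1 with 1 library left out. Leaving out 1 library gave medians of -2.86 to -2.80 for the S121A NaCl response and -3.64 to -3.55 for the S121A heat response.

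Without the 10 most abundant genes in the total, the summed shares were 0.619% and 0.662% without stress, 0.0669% and 0.0965% in NaCl and 0.0286% and 0.0423% in heat, WT first. With longer motif letters 19 genes held PAC and 14 both. CKB1 in WT heat was 0.27 in the main model and -0.13 with plain totals, and HRR25 was 0.37 and -0.01; the scaling shift of -0.37 is of that size.

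Over all genes, 50.8% of WT heat calls were higher, against 34.6% with plain totals; for the NaCl and heat response differences 81.6% and 68.7% became 45.6% and 29.0%. Among values of single named genes, 4966 stayed on their side of the threshold, 56 lost and 23 gained a call, and 2 called values changed sign. Many of these values come from fits that left out a library outside the comparison. Such a library enters the value only through the shared spread, the scaling and the filter, so the count of 4966 overstates stability. With the replicate block 32 genes in place of 31 had a higher NaCl response difference. Within the 6 NaCl libraries alone, a block added after the data were seen gave 42 genes higher in S121A in place of 41, with a median of 0.74; UTP10 was the 1 named gene whose call it changed. In the other comparisons the same-number correlations were not all over 0.1. Over all pairs of groups they ran from -0.432 to 0.334, and 7 of 18 libraries correlated best with their own number. Libraries of unlike number reached 0.453, so correlations of this size do not by themselves show a pairing.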
